A study of Arabidopsis thaliana with 6 samples.

Results

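Nuclear genes for subunits of the mitochondrial respiratory chain were examined in whole seedlings of Arabidopsis thaliana, in the mutant atsf1-2 and in Col-0. The 60 loci were chosen from textbook subunits of complexes I, II, III and IV and of ATP synthase, and 32 of them had a probe set that the platform annotation paired with 1 gene. These 32 are described here, out of 13356 genes named that way on the arrays. They comprised 14 of 27 loci of complex I, 3 of 7 of complex II, 8 of 12 of complex III, 5 of 7 of complex IV and 2 of 7 of ATP synthase. Of the other 28 loci, 7 lay on probe sets shared with other genes, and none of the 28 is analysed here.

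The atsf1-2 seedlings carry a mutation in AtSF1, a factor for pre-mRNA splicing, in the Col-0 background, and the Col-0 seedlings are the wild type. The labels do not describe the lesion, and AtSF1 itself is not analysed here. Each genotype had 3 biological replicates with 1 ATH1 array each, from untreated seedlings grown for 9 days on MS agar at 23 C with 16 h of light and 8 h of dark. Values are MAS5 signals, which measure the brightness of a probe set on a linear scale and do not rank transcripts of different genes. They are set against each other between genes only to choose or describe groups of probe sets by brightness, and for pairs of genes. For a pair, the difference within an array is compared between genotypes. The seedlings held green tissue and root, since signals of 5 genes for photosynthetic electron transport lay between 7681 and 17913 and those of the root gene PYK10 between 14678 and 16811. In whole seedlings, more cells of a type and more RNA per cell cannot be told apart. An array of each genotype stood apart in the ratio of 3' to 5' signals of the actin control transcript, which was 2.47 on atsf1-2 replicate 3 and 2.14 on Col-0 replicate 2, against 3.36 to 3.63 on the other 4 arrays. Its part in the results was not tested, and the median and calls of the subunits are also given without both arrays.

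The respiratory chain moves electrons from NADH and succinate to oxygen in the inner mitochondrial membrane and uses the energy to pump protons, which ATP synthase then turns into ATP. Complex I oxidises NADH, complex II oxidises succinate and also belongs to the citric acid cycle, complex III passes electrons from ubiquinone to cytochrome c, and complex IV reduces oxygen. Most subunits are encoded in the nucleus and imported, a smaller number are made inside the mitochondrion, and the complexes are assembled from both sets. In plants several subunits have more than 1 nuclear gene.

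Transcripts of these subunits were mostly somewhat higher in atsf1-2. Of 32 subunit genes, 28 had a log2 fold change above 0, with a median of 0.28 and a range of -0.20 to 1.32, whereas 41.5% of all 13648 tested probe sets lay above 0 and their median was -0.070. Only 3 of the 32 passed the test across all probe sets, and all 3 rose: AT5G25450 and AT3G10860 of complex III and AT3G27380 of complex II. No subunit gene was called lower by limma (0 of 32, also at an unadjusted p under 0.05), while 13 were higher at an unadjusted p under 0.05. The background of calls was 3% higher and 5.19% lower over all probe sets, from limma with an adjusted p under 0.05, and 9.5% were higher and 16.5% lower at the unadjusted level. All 3 arrays of atsf1-2 lay above all 3 of Col-0 for 15 of the 32 genes, against 12.1% of all probe sets, and for no subunit gene did they all lie below, against 19.2%.

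The subunit genes were all bright, and bright probe sets as a whole leaned upward in atsf1-2. Among the 4460 probe sets at least as bright as the dimmest subunit gene (a geometric mean signal of 751), the median log2 fold change was 0.035, 54.1% lay above 0, 5.65% were called higher, 4.42% were called lower, 16.5% were higher and 12.5% lower at an unadjusted p under 0.05, and 20.3% had all arrays of atsf1-2 above those of Col-0. The number of subunit genes above 0 was 24 after quantile normalization, with a median of 0.16 against -0.0061 for the bright probe sets, and 30 after median centring of the arrays, with 0.42 against 0.18. Non-overlapping arrays were then found for 12 and for 18 subunit genes, against 17.1% and 31.1% of the bright probe sets. After quantile normalization 2 subunit genes had all arrays of atsf1-2 below those of Col-0. The median of the subunits lay above that of the bright probe sets under each of these 3 scalings. As a whole the bright probe sets were dimmer than the subunits. Their median log2 signal was 10.58 to 10.63 on the arrays, against 11.56 to 11.92 for the subunits. A set matched to the subunits in brightness was not tested.

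**Figure D1:**
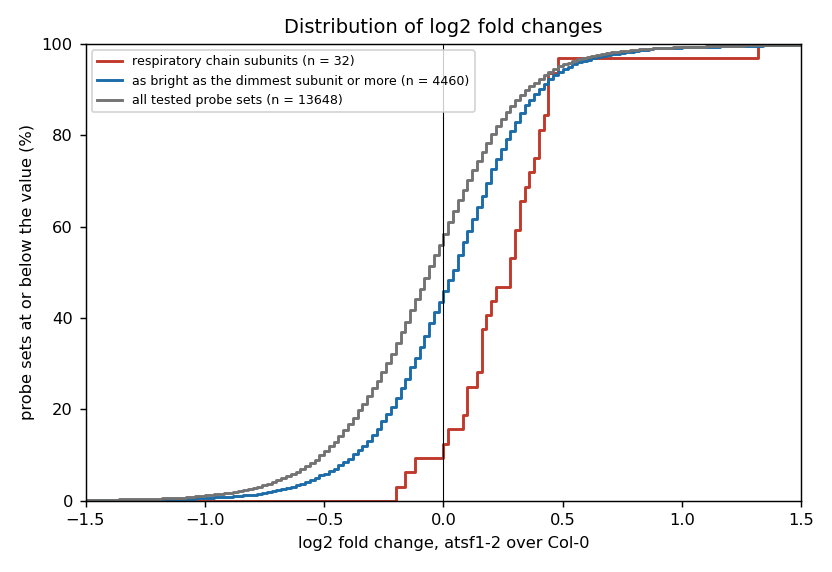
Cumulative share of probe sets (percent, vertical axis) with a log2 fold change of atsf1-2 over Col-0 at or below the value on the horizontal axis. Below a log2 fold change of about 0.4 the curve of the 32 respiratory subunits (median 0.28) runs to the right of the other curves. These are the 4460 probe sets at least as bright as the dimmest subunit (median 0.035) and all 13648 tested probe sets (median -0.070). Above about 0.4 the curve of the subunits runs close to the others and crosses them.

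The median signal of the 32 subunit genes was 3749, 3577 and 3863 on the atsf1-2 arrays, against 3058, 3010.4 and 3206 on the Col-0 arrays, so the genotypes did not overlap in this summary. The median signal over all probe sets other than controls was lower in atsf1-2. It was 164.8 to 181.2 on those arrays, against 182.1 to 195.1 in Col-0. For the subunit genes, replicates of atsf1-2 spread more, with a median SD of 0.16 on the log2 scale against 0.10 in Col-0. The SD was the larger one in atsf1-2 for 20 of 32 genes. Replicate 3 of atsf1-2 was the highest of its genotype for 15 genes and the lowest for 12. Without that array and Col-0 replicate 2, the other array that stands apart, the median of the subunits was 0.21 and 4 passed, namely AT5G25450, AT3G10860, AT4G02580 and AT2G42210, while AT3G27380 did not (limma adjusted p = 0.0583).

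**Figure D2:**
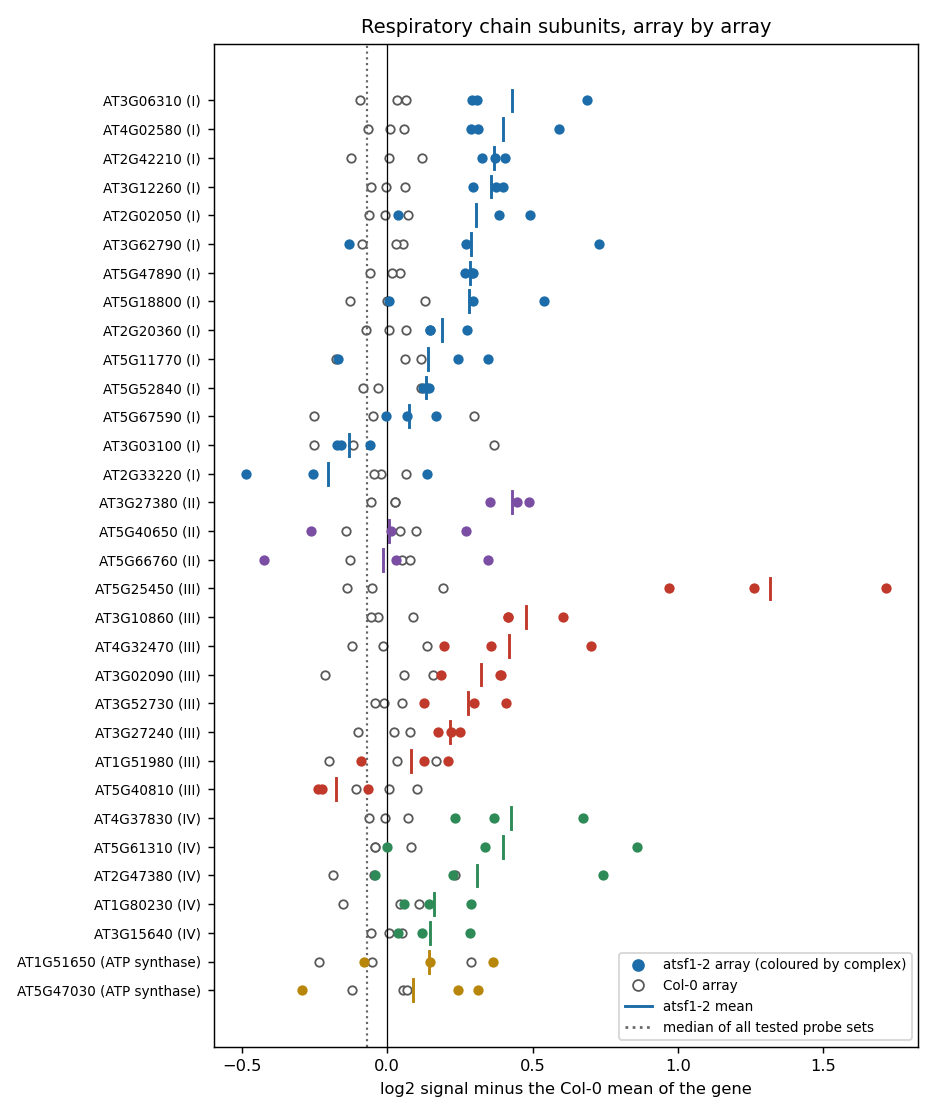
Log2 signal of each of the 32 subunit genes on each array minus the mean of the 3 Col-0 arrays (horizontal axis), with genes grouped by complex (vertical axis, complex in brackets). Filled points are atsf1-2 arrays, open points Col-0 arrays, short vertical lines the atsf1-2 means, and the dotted line the median of all tested probe sets (-0.070). AT5G25450 stands furthest to the right at 1.32, and 28 of the 32 means lie above 0.

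No gene of complex I passed limma's adjusted threshold, although 12 of 14 lay above 0, 6 were higher at an unadjusted p under 0.05 and the arrays of 7 did not overlap. Among the bright probe sets 54.1% lay above 0, 16.5% were higher at that level and 20.3% had all atsf1-2 arrays above those of Col-0. The median log2 fold change of complex I was 0.28. The gene with the smallest p was AT3G12260, for the accessory subunit B14, whose signal was 7420.2, 7029.7 and 7543 in atsf1-2, against 5703, 5501 and 5978 in Col-0. All atsf1-2 arrays were above all Col-0 arrays, and the log2 fold change was 0.36 ± 0.10 (SE, adjusted p of 0.056 by limma), just outside the threshold. AT2G42210 (OEP16-3), for the subunit B14.7 of the Tim17/Tim22/Tim23 protein family, had 5485, 5355 and 5193 in atsf1-2, against 3799, 4502 and 4156 in Col-0, with a log2 fold change of 0.37 ± 0.11 (SE, adjusted p of 0.0655 by limma).

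Of the catalytic core of complex I, 2 genes for iron-sulphur subunits were measured. AT4G02580, whose product sits next to the site of NADH oxidation, had signals of 4038, 4899.6 and 3974 in atsf1-2, against 3108, 3390.3 and 3272 in Col-0, and its log2 fold change was 0.40 ± 0.12 (SE, adjusted p of 0.0678 by limma). Its groups did not overlap, and it passed without atsf1-2 replicate 3 (limma adjusted p = 0.0391). AT5G11770, for the subunit PSST next to the ubiquinone site, had a log2 fold change of 0.14 ± 0.15 (SE) with overlapping arrays, and a 95% interval of -0.18 to 0.46; after quantile normalization it was -0.022. FRO1 (AT5G67590), a subunit of the matrix arm whose mutant is known for impaired cold-responsive gene expression, had 0.077 ± 0.15 (SE), and -0.026 after quantile normalization.

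Among the accessory subunits of complex I, the largest log2 fold change was that of AT3G06310, a gene for the subunit PGIV, with signals of 992, 981 and 1290.3 in atsf1-2, against 750.3, 819 and 837 in Col-0 and a log2 fold change of 0.43 ± 0.15 (SE, adjusted p of 0.094 by limma). The smallest was that of AT2G33220, for the subunit B16.6, with signals of 2108, 1607 and 1369 in atsf1-2, against 1892, 2007 and 1859 in Col-0 and a log2 fold change of -0.20 ± 0.16 (SE, adjusted p of 0.45 by limma). The 2 groups of AT2G33220 overlapped, since its replicate 1 in atsf1-2 was above every Col-0 array and the other atsf1-2 arrays were below them. AT5G47890 (subunit B8) had 3065, 3003 and 3059 in atsf1-2, against 2574, 2395 and 2527 in Col-0, without overlap, and a log2 fold change of 0.28 ± 0.11 (SE, adjusted p of 0.13 by limma). The groups of AT2G20360, with 0.19 ± 0.12 (SE), did not overlap either, nor did those of AT5G52840 (B13), with 0.13 ± 0.11 (SE). Those of AT2G02050 (B18), AT5G18800 (PGIV) and AT3G62790 overlapped, with log2 fold changes of 0.30, 0.28 and 0.29. AT5G18800 gave 0.15 without atsf1-2 replicate 3, and AT3G62790 gave 0.07 without that array and 0.50 without atsf1-2 replicate 2. AT3G03100 (B17.2) had -0.13 ± 0.15 (SE), where the Col-0 replicate 2 signal of 5447 was the highest of the 6 arrays, and without that array the value was 0.054. By position in the complex, the median was 0.16 over 8 genes of the matrix arm and 0.30 over 6 genes of the membrane arm, with ranges that overlapped (-0.13 to 0.40 and -0.20 to 0.43). The 5 loci of the gamma carbonic anhydrase domain, a part of complex I that plants have and mammals lack, had no value here (0 measured).

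In complex II, SDH2-1 rose and the other 2 measured genes did not pass. SDH2-1 (AT3G27380), an iron-sulphur subunit that carries electrons from the flavoprotein to ubiquinone, had signals of 2821, 2641 and 2899 in atsf1-2, against 2109, 1992 and 2108 in Col-0. The genotypes did not overlap, the means were 2787 ± 133 in atsf1-2 and 2069.7 ± 67.6 in Col-0 (SD, n = 3 each), and the log2 fold change was 0.43 ± 0.11 (SE, adjusted p of 0.0425 by limma), a fold of 1.35. The other measured gene of that subunit, SDH2-2 (AT5G40650), had 1491, 1031 and 1246 in atsf1-2, against 1323, 1119 and 1273 in Col-0, with a log2 fold change of 0.0076 ± 0.16 (SE, adjusted p of 0.982 by limma) and a 95% interval of -0.33 to 0.35. SDH1-1 (AT5G66760), the flavoprotein that oxidises succinate, had 1788, 2229 and 1307 in atsf1-2, against 1813, 1604 and 1848 in Col-0, a log2 fold change of -0.016 ± 0.18 (SE, adjusted p of 0.97 by limma) and an interval of -0.41 to 0.38. The arrays of SDH2-2 and SDH1-1 overlapped, and their signs changed between settings. The call of SDH2-1 was close to the threshold: it ended without any single array other than atsf1-2 replicate 3 (limma adjusted p = 0.146, 0.106 and 0.132 without Col-0 replicates 1, 2 and 3, 0.112 and 0.0524 without atsf1-2 replicates 1 and 2) and with the replicate number as a block (0.104). The call also ended with no filter, after quantile normalization, with eBayes without a trend and without both arrays that stand apart. A second probe set of SDH2-1 was too dim for the filter, and averaging both gave a log2 fold change of -0.061.

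Complex III held the clearest change. AT5G25450, a gene for QCR7, a small subunit on the matrix side, rose in every atsf1-2 replicate, with signals of 4668, 3815 and 6406 in atsf1-2, against 1769, 1881 and 2226 in Col-0. The lowest atsf1-2 array was well above the highest Col-0 array, and the means were 4963 ± 1320.4 in atsf1-2 and 1959 ± 238 in Col-0 (SD, n = 3 each). The log2 fold change was 1.32 ± 0.18 (SE, adjusted p of 0.003 by limma), a fold of 2.49 with a 95% interval on the log2 scale of 0.92 to 1.71. It passed under all 16 alternatives, with values of 1.09 to 1.49. It was the only one of the 32 subunit genes that changed more than 2-fold, and the next largest log2 fold change was 0.48. That was AT3G10860, a gene for the small subunit QCR8, with 8292, 8299 and 9456 in atsf1-2, against 6079, 5987 and 6612 in Col-0. Its groups did not overlap, and its log2 fold change was 0.48 ± 0.11 (SE, adjusted p of 0.0251 by limma), a fold of 1.39. With no filter, and with eBayes without a trend, this gene was not called. Its call ended on leaving out any one of the Col-0 arrays (limma adjusted p = 0.112, 0.0797 and 0.0688 without replicates 1, 2 and 3), without atsf1-2 replicate 1 (0.0667), with the replicate number as a block (0.0596) and after quantile normalization, where the log2 fold change was 0.29 (limma adjusted p = 0.0851).

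The other 6 genes of complex III did not pass. AT4G32470, the other gene for QCR7, had signals of 6542, 5855 and 8315 in atsf1-2, against 4695, 5622 and 5064 in Col-0 and a log2 fold change of 0.42 ± 0.14 (SE, adjusted p of 0.0912 by limma). AT3G52730, for the small subunit QCR9, had 0.28 ± 0.11 (SE). MPPBETA (AT3G02090), the beta subunit of the processing peptidase that cuts targeting sequences from imported proteins and that plants build into complex III, had 6116, 6104 and 5304 in atsf1-2, against 4849.7, 4025 and 5195 in Col-0, with a log2 fold change of 0.32 ± 0.13 (SE, adjusted p of 0.14 by limma). The arrays of these 3 genes did not overlap. The alpha subunit of the same peptidase, AT1G51980, had 0.081 ± 0.14 (SE) with overlapping arrays and a 95% interval of -0.22 to 0.38; after quantile normalization it was -0.020. Cytochrome c1, the haem subunit that hands electrons to cytochrome c, has 2 measured genes, AT3G27240 and AT5G40810. AT3G27240 had signals of 2897, 2960.0 and 2809 in atsf1-2, against 2529, 2321 and 2625 in Col-0, without overlap, and a log2 fold change of 0.22 ± 0.11 (SE). AT5G40810 had 2649, 2353 and 2372 in atsf1-2, against 2783, 2576 and 2973 in Col-0, with overlap, and -0.18 ± 0.12 (SE). Both intervals held 0 (-0.034 to 0.46 for AT3G27240 and -0.44 to 0.085 for AT5G40810).

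All 5 measured genes of complex IV lay above 0, also after quantile normalization and median centring, and none passed (1 at an unadjusted p under 0.05, by limma). Of the bright probe sets 54.1% lay above 0 as deposited, 49.3% after quantile normalization and 70.9% after median centring. As deposited, 16.5% of them were higher at an unadjusted p under 0.05 by limma, and 20.3% had all atsf1-2 arrays above those of Col-0. AT4G37830, for the subunit COX6a, had signals of 10995, 10002 and 13564 in atsf1-2, against 8148, 8474 and 8943 in Col-0, and its log2 fold change was 0.42 ± 0.12 (SE, adjusted p of 0.0596 by limma). It was the only gene of complex IV whose groups did not overlap. It passed without atsf1-2 replicate 2 (limma adjusted p = 0.0378). The genes for COX5c, AT5G61310 and AT2G47380, had 0.40 ± 0.20 (SE) and 0.31 ± 0.18 (SE). Without atsf1-2 replicate 3 they gave 0.17 and 0.092, and without atsf1-2 replicate 2 they gave 0.60 and 0.48. In AT2G47380 the signals were 7817, 6484 and 11169 in atsf1-2, against 5870.0, 7845 and 6475 in Col-0, and replicate 3 of atsf1-2 alone stood above all Col-0 arrays. The genes for COX5b, AT1G80230 and AT3G15640, had 0.16 ± 0.13 (SE) and 0.15 ± 0.12 (SE). The 2 measured genes of ATP synthase, both for the central stalk of its soluble part, overlapped between genotypes. AT1G51650 (subunit epsilon) had 0.14 ± 0.16 (SE, adjusted p of 0.6 by limma) with an interval of -0.20 to 0.49, and AT5G47030 (subunit delta) had 0.087 ± 0.16 (SE, adjusted p of 0.766 by limma) with an interval of -0.26 to 0.43. Their median of 0.12 turned to -0.014 after quantile normalization.

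For 6 subunits both of a pair of genes were measured, which allowed a comparison within each array that a constant scaling of that array cannot move. The gene with the larger log2 fold change was put first in each pair, so every shift is above 0 by construction. The log2 signal of the QCR7 gene AT5G25450 minus that of AT4G32470 was -0.49, -0.62 and -0.38 in atsf1-2, against -1.41, -1.58 and -1.19 in Col-0. The pair thus shifted by 0.90 toward AT5G25450, and the genotypes did not overlap. The difference of SDH2-1 minus SDH2-2 was 0.92, 1.36 and 1.22 in atsf1-2, against 0.67, 0.83 and 0.73 in Col-0, a shift of 0.42. It rests on the brighter of 2 probe sets of SDH2-1, whose log2 fold change was -0.061 when both were averaged. For cytochrome c1, AT3G27240 minus AT5G40810 was 0.13, 0.33 and 0.24 in atsf1-2, against -0.14, -0.15 and -0.18 in Col-0, a shift of 0.39. These 3 pairs gave an exact permutation p of 0.1 each, two-sided, the smallest that 3 arrays against 3 allow, and 0.2 after Benjamini-Hochberg adjustment over the 6 pairs. The pairs for PGIV, COX5c and COX5b overlapped, with shifts of 0.15, 0.089 and 0.015 (exact permutation p of 0.3, 1 and 1). The log2 differences had SDs (n = 3 each) of 0.12 in atsf1-2 and 0.20 in Col-0 for QCR7, 0.22 in atsf1-2 and 0.081 in Col-0 for SDH2, and 0.10 in atsf1-2 and 0.021 in Col-0 for cytochrome c1. The probe sets of paralogues may share some signal, which was not tested.

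**Figure D3:**
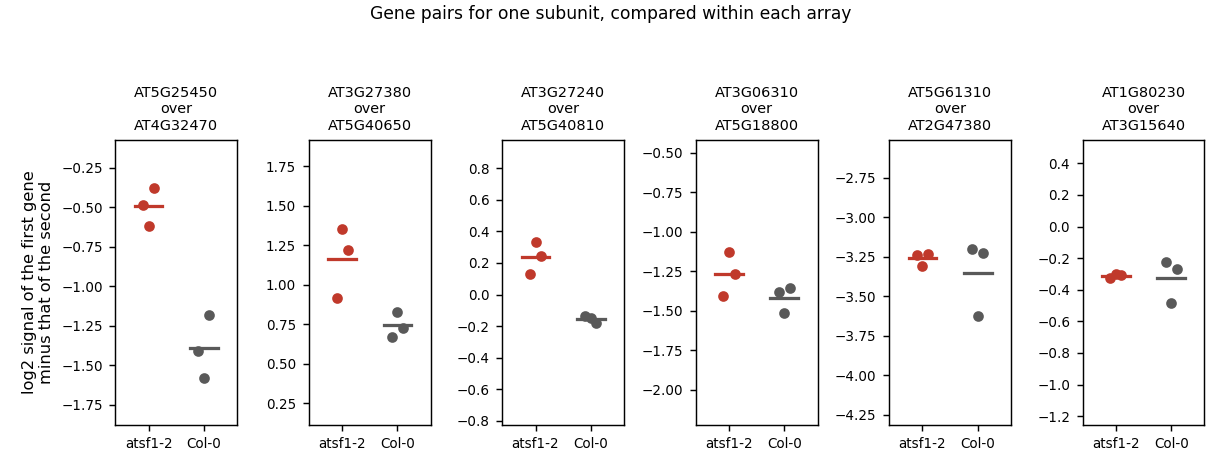
Log2 signal of the first gene minus that of the second on each array (vertical axis, each panel spanning the same range of values) for 6 pairs of genes that encode the same subunit, with 3 atsf1-2 and 3 Col-0 arrays. Short lines are means. The groups are apart in the first 3 panels, with shifts of 0.90, 0.42 and 0.39, and overlap in the others. The first gene of each pair is the one with the larger log2 fold change.

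Genes that work with the complexes were taken from textbook lists, given here by how many of their members had a usable probe set. Both genes for cytochrome c, the carrier between complexes III and IV, rose in atsf1-2. CYTC-1 had signals of 9572, 10154 and 11573 in atsf1-2, against 7249, 7633 and 8132 in Col-0, and CYTC-2 had 5237, 4483 and 3866 in atsf1-2, against 3317, 2622 and 3391 in Col-0. Neither pair of groups overlapped, and the log2 fold changes were 0.44 ± 0.11 (SE, adjusted p of 0.0364 by limma) and 0.54 ± 0.15 (SE, adjusted p of 0.0469 by limma). CYTC-1 was called without atsf1-2 replicate 3 but not without any other single array (limma adjusted p from 0.0529 without atsf1-2 replicate 2 to 0.154 without Col-0 replicate 1), and likewise CYTC-2 (from 0.0801 without atsf1-2 replicate 2 to 0.154 without atsf1-2 replicate 1). Without both arrays that stand apart the call of CYTC-1 ended (0.0653) and that of CYTC-2 did not (0.0295). With the replicate number as a block the limma adjusted p-values were 0.0689 and 0.0831, and after quantile normalization 0.103 and 0.107. Neither gene was called with no filter or with eBayes without a trend. The same list of 9 genes held 6 other tested dehydrogenases and electron transfer proteins that feed ubiquinone or cytochrome c, and 5 of these lay below 0, none past limma's adjusted threshold and 3 at an unadjusted p under 0.05. Over all probe sets 41.5% lay above 0 and 16.5% were lower at that unadjusted level.

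The 6 are named here after their values were seen. ETFBETA, the beta subunit of the electron transfer flavoprotein, had 399.9, 466 and 384 in atsf1-2, against 599, 544 and 633 in Col-0, with a log2 fold change of -0.51 ± 0.15 (SE, adjusted p of 0.0548 by limma). IVD, isovaleryl-CoA dehydrogenase, had -0.46 ± 0.16 (SE) and ETFQO, which passes electrons of that flavoprotein to ubiquinone, had -0.42 ± 0.17 (SE). D2HGDH, which oxidises 2-hydroxyglutarate, had -0.28 ± 0.17 (SE). All atsf1-2 arrays lay below all Col-0 arrays for these 4 genes, against 19.2% of all probe sets. GLDH, an enzyme of ascorbate synthesis that passes electrons to cytochrome c, had -0.10 ± 0.19 (SE), and ETFALPHA, the alpha subunit of the flavoprotein, had 0.12 ± 0.15 (SE), both with overlapping arrays. The median of the list, -0.19, was 0.0074 with the filter at the 60th percentile, -0.042 after quantile normalization and -0.048 with median centring. ETFBETA, IVD and ETFQO were called lower with array weights, ETFBETA also with the 60th percentile filter and without atsf1-2 replicate 2, and IVD also without atsf1-2 replicate 3 and without both arrays that stand apart.

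**Figure D4:**
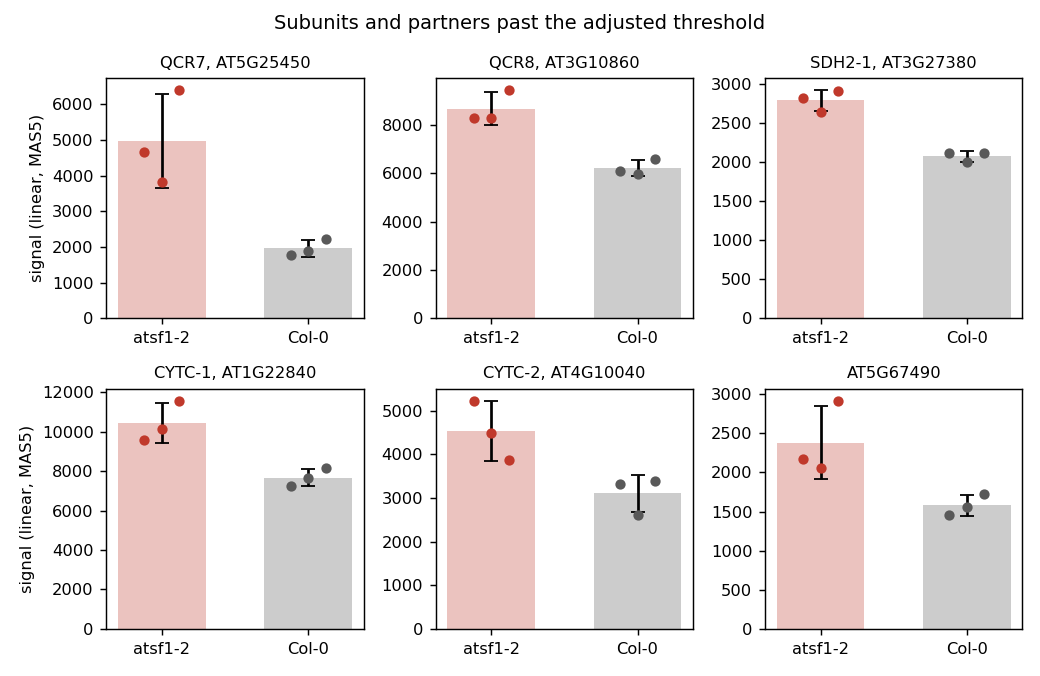
Signals (vertical axis, linear MAS5 units from 0) of the 3 subunit genes and the 3 partner genes that passed limma's adjusted threshold, with bars for means, error bars for SD (n = 3 arrays each) and points for single arrays. In each panel all atsf1-2 points lie above all Col-0 points, and the AT5G25450 panel shows the largest fold at 2.49.

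All 7 tested assembly factors, of 20 in the list, lay above 0, with a median of 0.30, and 1 passed. Over all probe sets 41.5% lay above 0 and 3% were called higher. The median of the list ran from 0.20 without atsf1-2 replicate 3 to 0.45 after quantile normalization. For 3 of the 7 genes all atsf1-2 arrays lay above all Col-0 arrays, against 12.1% of all probe sets, and the others overlapped. AT5G67490, a factor known from its homologues to help insert flavin into the succinate-oxidising subunit of complex II (SDHAF4), had signals of 2174, 2053 and 2918 in atsf1-2, against 1456, 1552 and 1726 in Col-0 and a log2 fold change of 0.58 ± 0.15 (SE, adjusted p of 0.0422 by limma). Its groups did not overlap, but the call ended without any single array except atsf1-2 replicate 2 (limma adjusted p from 0.0537 without atsf1-2 replicate 3 to 0.162 without Col-0 replicate 1) and also without both arrays that stand apart (0.0701), with no filter (0.0594), with eBayes without a trend (0.0732) and with the replicate block (0.064). AT2G34050, related to the assembly factor ATP11 of ATP synthase, had 0.41 ± 0.15 (SE), also without overlap. Of 13 tested genes of the citric acid cycle and pyruvate dehydrogenase, in a list of 30, 10 lay above 0 with a median of 0.15. None passed, and 2 were higher at an unadjusted p under 0.05 by limma, against 9.5% of all probe sets. AT5G55070, of 2-oxoglutarate dehydrogenase, was called higher without both arrays that stand apart (limma adjusted p = 0.0366). The smallest p was that of AT2G20420, the beta subunit of succinyl-CoA ligase, with 3116, 3471 and 4132 in atsf1-2, against 2868, 2603 and 2995 in Col-0 and a log2 fold change of 0.33 ± 0.13 (SE, adjusted p of 0.143 by limma). The 2 genes of its alpha subunit, AT5G08300 and AT5G23250, had 0.28 ± 0.12 (SE) and 0.27 ± 0.13 (SE). The groups of all 3 did not overlap, and the 2 were picked out after their values were seen. Of the 13 genes, 4 had all atsf1-2 arrays above those of Col-0, against 12.1% of all probe sets. For 1, AT4G26910 with -0.18 ± 0.13 (SE), all lay below, against 19.2%.

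Most tested subunits encoded in the mitochondrion lay below 0. Of 18 such genes, 10 were measured and 6 were bright enough to test, of which 5 lay below 0, with a median of -0.25. That median stayed below 0 under all 16 alternatives, between -0.34 (without atsf1-2 replicate 3) and -0.11 (median centring). It was -0.12 with the 60th percentile filter and with averaged probe sets. None of the 6 genes passed, and 3 were lower at an unadjusted p under 0.05 by limma (nad9, nad4L and nad1), against 16.5% of all probe sets. The groups of nad4L overlapped, with 213, 159 and 151 in atsf1-2, against 188, 425 and 309 in Col-0. Without Col-0 replicate 1, its signal of 188, nad4L was called lower, with a log2 fold change of -1.07 (limma adjusted p = 0.0460), against -0.76 on all arrays. The smallest p was that of nad9, a subunit of complex I, with 287, 280.1 and 218 in atsf1-2, against 352, 389 and 361 in Col-0 and a log2 fold change of -0.50 ± 0.16 (SE, adjusted p of 0.0825 by limma). For nad9 and nad1, which had -0.37 ± 0.14 (SE), all atsf1-2 arrays lay below all Col-0 arrays, whereas cox1 of complex IV had -0.012 ± 0.14 (SE) and cox2 had 0.25 ± 0.21 (SE). Plant mitochondrial transcripts mostly lack stable poly(A) tails, on which the labelling kit of these arrays starts. Of all tested probe sets 41.5% lay above 0, and 19.2% had all atsf1-2 arrays below those of Col-0. The 6 tested genes were mostly dimmer than the nuclear subunits, with geometric mean signals of 224 to 945, against 751 to 9864. Fold changes differed with brightness, with a median log2 value of 0.035 in the bright probe sets and -0.070 in all tested ones. The difference between nuclear and mitochondrial genes was not tested.

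The remaining lists held few tested genes and no call by limma. The bypass enzymes that skip proton pumping were represented by 3 tested genes of 14, NDC1 with -0.21 ± 0.15 (SE), NDB2 with 0.18 ± 0.15 (SE) and NDB1 with -0.098 ± 0.17 (SE), all with overlapping arrays. The 3 tested genes of protein import, of 30, with AT5G41685 of the smallest p at 0.083 ± 0.16 (SE), lay between -0.051 and 0.083. The 5 tested genes for photosynthetic electron transport in the chloroplast, of 27, lay between -0.043 and 0.21 with a median of 0.057, the smallest p being that of ATPC1 with 0.21 ± 0.11 (SE). That median was -0.12 after quantile normalization, 0.20 with median centring, -0.019 without atsf1-2 replicate 3 and -0.014 without both arrays that stand apart. The 3 tested root markers, of 5, lay between -0.064 and -0.0061, the smallest p being that of EXPA18 with -0.064 ± 0.15 (SE), which turned positive after quantile normalization (0.049) and with median centring (0.076). No gene of the adenylate and phosphate carrier list was measured (0 of 6). At an unadjusted p under 0.05 none of the 14 genes of these 4 lists was past the threshold.

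**Figure D5:**
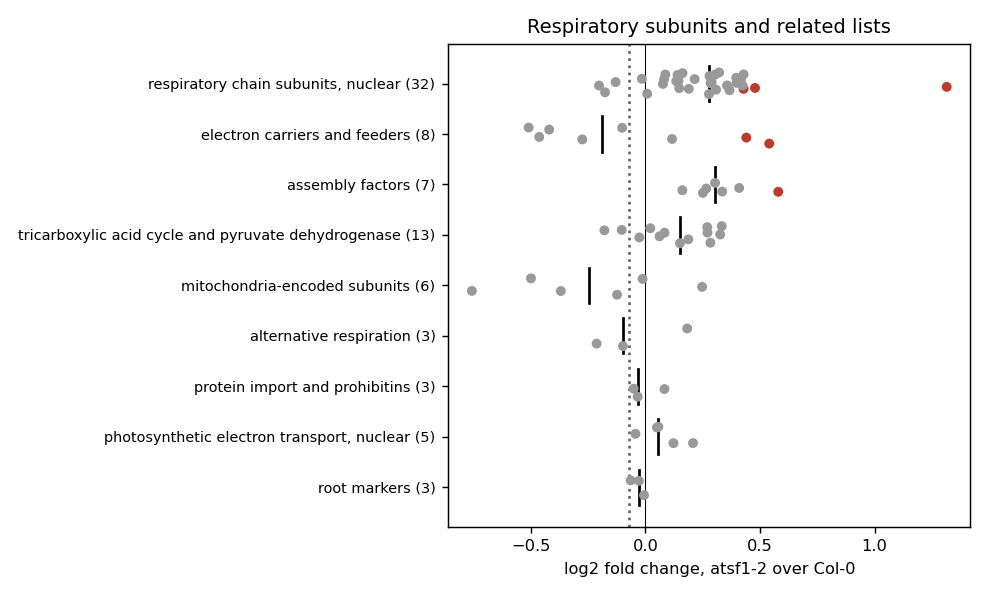
Log2 fold changes of atsf1-2 over Col-0 (horizontal axis) for the 32 nuclear respiratory subunits and the tested genes of 8 related lists (vertical axis, number of tested genes in brackets). Red points passed limma's adjusted threshold, grey points did not, black lines are list medians and the dotted line is the median of all tested probe sets. The medians of the nuclear subunits (0.28) and assembly factors (0.30) lie furthest to the right, and that of the mitochondria-encoded subunits (-0.25) furthest to the left. The lists differ in brightness, and the mitochondria-encoded genes were mostly dimmer than the nuclear subunits.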

How the data were processed

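Signals of 6 ATH1 arrays, made from 300 ng of total RNA each, were analysed. The authors made the deposited intensity values with the MAS5 method, and the submitters' processing notes name Affymetrix Expression Console 1.2, with 1 linear value per probe set and array. Their trimmed means, without the lowest and highest 2%, were 500.04 to 500.05, as computed from the values. The arrays had thus been scaled to a common trimmed mean. Medians over all probe sets other than controls still differed, with 164.8 to 181.2 in atsf1-2 and 182.1 to 195.1 in Col-0. Settings for background and scaling were not given in the sources used here.

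Of 22810 probe sets, 64 controls were left out of the tests. Signals were taken to log2, and 13648 probe sets with a mean at or above the 40th percentile (a signal of 104.4) were kept. The test of atsf1-2 against Col-0 was that of limma 3.58.1 under R 4.3.3 (eBayes with a trend, two-sided), with Benjamini-Hochberg adjustment over all 13648 and a threshold of 0.05; SE and 95% intervals are limma's. The fit was also run on simulated data with independent noise, which held no effects shared by the probe sets of an array. Its recovery of changes as small as those of most subunits is not reported here. Each locus was represented by its single-gene probe set of highest mean, matched by gene identifier in the RefSeq table of TAIR10.1 or, for mitochondrial genes, by the symbol in the platform annotation. Pairs of genes were compared with exact permutation tests. The alternatives were no filter and a filter at the 60th percentile, an added pseudocount of 38.3, quantile normalization, median centring, a block for replicate number, eBayes without a trend, averaging of a locus's probe sets, array weights, and leaving out each array or both that stand apart. The comparison with bright probe sets and the matching of mitochondrial genes by symbol were chosen after seeing the data.

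The members, the lists and the alternatives were chosen with earlier results of these data known. Subunit genes past the threshold, the genes with the smallest p of each complex and the ends of each range are named by rule, as are up to 3 called genes, or the one with the smallest p, of each list. The remaining subunit genes, ETFBETA, IVD, ETFQO, ETFALPHA, AT2G34050 and the other list genes named were added after their values were seen. The number of arrays limits the precision. The p-values of limma set the difference between genotypes against the spread between the 3 biological replicates of each. That spread is drawn toward the trend over all tested probe sets.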

Additional observations from a re-analysis of the deposited data

How the results depend on the processing

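The number of subunit genes past the threshold depended on the setting, while no subunit gene was called lower under any of the 16 alternatives. It was 1 with no filter, with quantile normalization, with eBayes without a trend and with the replicate block, 8 with median centring and 11 with array weights, and it lay between 1 and 4 without single arrays. The median of the subunits was 0.16 after quantile normalization, 0.42 with median centring, 0.21 without the 2 arrays that stand apart, and 0.21 to 0.29 without single arrays. Over all probe sets, 267 were higher and 439 lower with no filter, 755 and 362 with median centring, 947 and 1713 with array weights, 171 and 263 with the replicate block, 271 higher with eBayes without a trend, and 125 to 461 higher and 144 to 786 lower without single arrays, against 409 and 709. Median centring moved the median of all tested probe sets to 0.071, against -0.070 as deposited. AT5G25450 kept its call throughout, AT3G10860 in 8 of 16 alternatives and SDH2-1 in 5 of 16.

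Of the subunit genes that did not pass, 8 passed under at least 1 alternative and 7 changed sign under at least 1. AT5G66760 gave 0.13 with median centring, 0.033 with array weights, 0.12 without the 2 arrays and -0.20 to 0.19 without single arrays. After quantile normalization AT5G11770 gave -0.022, AT5G67590 -0.026, AT1G51980 -0.020 and AT5G47030 -0.034. AT3G03100 gave 0.011 with median centring and 0.018 without the 2 arrays, and AT5G40650 gave -0.066 without them. Ranges without single arrays were -0.049 to 0.23 for AT5G67590, -0.26 to 0.054 for AT3G03100, -0.12 to 0.14 for AT5G40650, -0.019 to 0.17 for AT1G51980, -0.025 to 0.28 for AT5G47030, -0.0017 to 0.25 for AT5G41685 and -0.18 to 0.038 for EXPA18. EXPA18 gave 0.049 after quantile normalization and 0.076 with median centring, and AT3G27380 -0.061 with the mean of its probe sets. For these sign changes the cause was not tested. Leaving out 1 array also moved other subunit genes that did not pass by over 1.5 times: AT1G51650 to between 0.027 and 0.29, AT1G80230 to 0.085 at the least, AT3G15640 to 0.079 at the least, AT2G33220 to between -0.37 and -0.060, AT5G11770 to between 0.038 and 0.30, and AT4G32470 to 0.28 at the least.

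The titles number the replicates without saying that they pair the seedlings. Arrays that share a number had correlations of 0.10, -0.19 and -0.21 in their deviations from each genotype's mean, so the numbers were not taken as pairs. Between unlike numbers the correlations ran from -0.25 to 0.32. The highest was that of atsf1-2 replicate 3 with Col-0 replicate 2, the arrays that stand apart. What these arrays share was not tested, and the fit held genotype only. With the replicate block 1 subunit gene, AT5G25450, passed.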

Other observations

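Of the list genes measured, 8 were too dim for the filter. Among them the bypass NADH dehydrogenase genes NDB4 and NDB3 were listed at 113, 83.2 and 141 in atsf1-2, against 27.4, 20.8 and 20.3 in Col-0 for NDB4, and at 88.6, 116 and 104 in atsf1-2, against 41.0, 41.4 and 51.5 in Col-0 for NDB3. The groups did not overlap for either gene. In the fit with no filter the log2 fold change was 2.28 ± 0.40 (SE, adjusted p of 0.0157 by limma) for NDB4 and 1.202 ± 0.33 (SE, adjusted p of 0.0778 by limma) for NDB3. IDH-III, a subunit of isocitrate dehydrogenase, had 56.7, 40.5 and 26.9 in atsf1-2, against 17.7, 9.47 and 11.4 in Col-0 (limma adjusted p = 0.154 with no filter). All Col-0 signals of these 3 genes lay below the lowest mean kept by the filter, 104.4, where sizes of change depend on how dim signals are treated. They were picked out after their values were seen.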
